A study of Mus musculus with 82 samples.

Results

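Transcripts of 8 cytokine receptor chains were followed in ovalbumin-specific mouse T cells: Il7r, Il2ra, Il2rb, Il2rg, Il4ra, Il15ra, Il21r and Il6ra. They were taken by gene symbol from the 3 deposited count tables, where all 8 were found among the 21823 genes that the tables share, and all 8 passed the filter on low counts in every fit. The cells were OT-I (CD8) and OT-II (CD4) T cells, which carry transgenic receptors for ovalbumin (OVA). Both kinds were transferred into recipient mice, which were later given pGal-OVA (the antigen with synthetic sugar chains attached, here pGal), 5 µg of plain OVA, or saline, and the cells were sorted from pooled spleen and lymph nodes 4 days after that. The pGal amount appears as 5 µg in one description and as a molar antigen equivalent in another, so whether the antigen amounts were equal cannot be told.

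In the therapeutic experiment recipients were immunized with OVA in complete Freund's adjuvant after the transfer and treated a month later, saline mice included. Each therapeutic library came from 1 mouse, and the sorted cells were snap frozen in buffer. In the prophylactic experiment the antigen was given 1 day after transfer to recipients labelled C57BL/6, each library pooled 3 mice, cells went into Trizol, and the labels name 2 batches. The strain labels of the therapeutic libraries do not give a usable strain. The sources used here give no ages of the mice. The prophylactic OT-I groups have 5 libraries for each of pGal, OVA and saline, and the OT-II groups have 5 for pGal, 4 for OVA and 5 for saline.

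The cell type was checked by Cd4 against Cd8a. In 11 of the 53 therapeutic libraries the coreceptor transcripts were those of the other lineage: 6 libraries labelled OT-I had 424 to 1373 CPM (counts per M, where M stands for mega) of Cd4 and at most 2.72 CPM of Cd8a, and 5 labelled OT-II had 799 to 1271 CPM of Cd8a and at most 4.12 CPM of Cd4. These 11 were left out, which leaves 8 pGal, 8 OVA and 6 saline libraries for OT-I, and 8 pGal, 6 OVA and 6 saline libraries for OT-II. Results with all 53 libraries as labelled are given beside those they touch. Total counts ran from 21.2 to 68.2 M over all 82 libraries. Of the 71 libraries used, 9 had at least 100 CPM of the B cell gene Cd79a, 4 of them prophylactic, with 168 to 1388 CPM. In 2 prophylactic OT-I libraries, batch 1 pGal 2 and batch 1 OVA 1, Cd4 also reached at least 100 CPM. Cd8a was raised in prophylactic OT-II batch 2 OVA 2, at 118 CPM beside 248 CPM of Cd4, and in batch 1 pGal 3, at 87.3 CPM. Both of these OT-II libraries were among the B cell rich ones. The other prophylactic OT-II libraries had at most 18.4 CPM of Cd8a.

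Il2rg encodes the common gamma chain, which pairs with other chains in the receptors for the cytokines IL-2, IL-4, IL-7, IL-9, IL-15 and IL-21. The pairing brings together the kinases JAK1 and JAK3, which activate STAT proteins. Signals from the IL-7 receptor keep resting T cells alive, and T cells lower Il7r when they are activated, while the IL-2 and IL-15 receptor chain Il2rb is raised in effector and memory cells. The IL-6 receptor is built differently, from Il6ra and the signalling chain gp130 (Il6st).

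In OT-II cells given antigen soon after transfer, Il7r fell and Il2rb rose under pGal, relative to plain OVA as well as to saline. Under plain OVA Il2rb rose against saline, whereas the Il7r difference missed the threshold. Il7r in prophylactic OT-II cells averaged 100.8 ± 27.6 CPM under pGal, against 184 ± 39.1 under OVA and 259 ± 17.2 under saline, and Il2rb averaged 450.3 ± 88.6 CPM, against 241 ± 109 and 84.7 ± 15.2 (SD, n = 5, 4 and 5). Il4ra was lower under pGal than under OVA or saline, and Il21r was lower under pGal than under saline. In previously immunized mice the calls came from plain OVA against saline and none from pGal in edgeR: Il7r fell in both cell types, and Il2ra fell in OT-II cells. The Il2ra call held in only 9 of 20 fits that left out 1 library. Il2rg, Il15ra and Il6ra were called in none of the 12 comparisons between treatments.

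Calls rest on edgeR's quasi-likelihood test, with Benjamini-Hochberg adjustment over all genes tested and a threshold of 0.05. Of the 8 receptor genes, 4 were called in prophylactic OT-II cells for pGal against saline, where 11.7% of all 14128 genes were called, and 3 for pGal against OVA, where 1.87% were called. In the same cells 1 was called for OVA against saline, where 0.163% were called. For prophylactic OT-I cells 1 gene was called for pGal against saline and 1 for OVA against saline, where 3.35% and 5.39% of all genes were called. For pGal against OVA in prophylactic OT-I cells 0 receptor genes and 0% of all genes were called, and 0 receptor genes had an unadjusted p under 0.05 in edgeR, DESeq2 and limma voom calling 0 as well. In the therapeutic experiment 1 receptor gene was called for OVA against saline in OT-I cells (0.48% of all genes) and 2 in OT-II cells (1.54%). The 4 therapeutic comparisons with pGal called 0 of the 8 genes by edgeR, with 2 genes at an unadjusted p under 0.05 in each. All genes were called at 0% in 3 of those comparisons and at 0.00702% for pGal against saline in OT-II cells, where DESeq2 called 1 receptor gene and limma voom 0. The median log2 fold change of the 8 genes lay between -0.40 and 0.12 over the 12 comparisons, beside -0.07 to 0.08 for all genes tested.

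**Figure D1:**
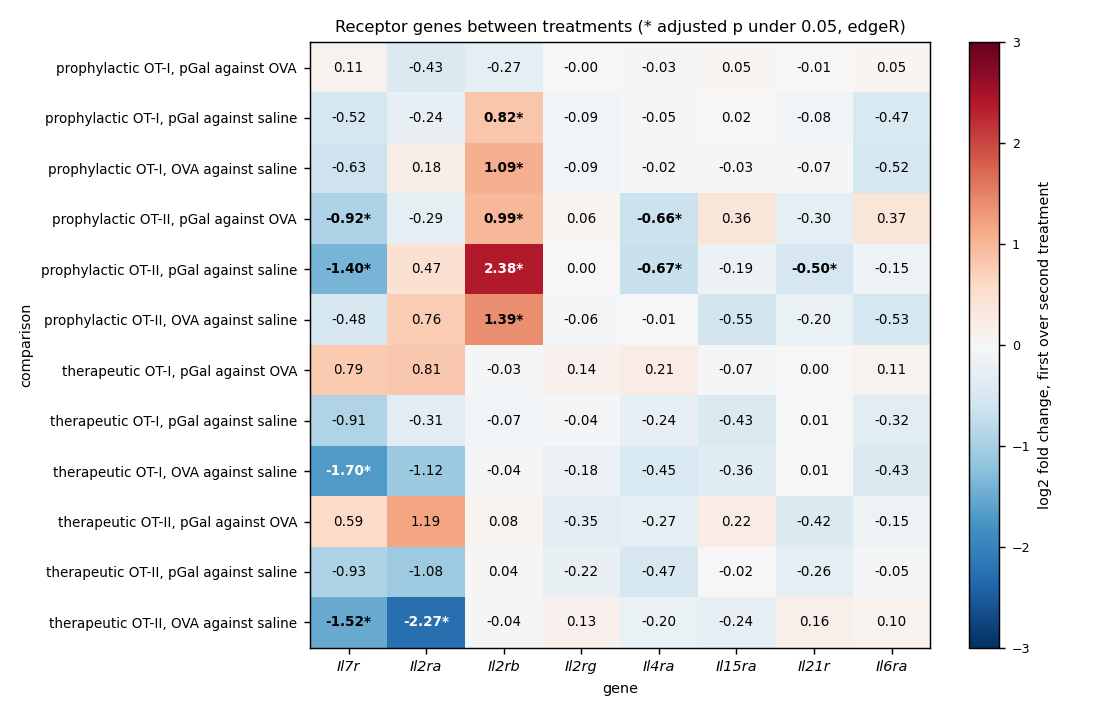
Log2 fold change of the 8 receptor genes (columns) in the 12 comparisons between treatments (rows), first treatment over second; colour and printed number give the value, and an asterisk marks an adjusted p under 0.05 from edgeR's quasi-likelihood test. The asterisks for Il2rb stand in prophylactic rows alone, from 0.82 to 2.38, and those for Il2ra and the OT-I call of Il7r stand in therapeutic rows.

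Il7r encodes the IL-7 receptor alpha chain, which is also part of the receptor for TSLP, and lies on chromosome 15 (GRCm38 9505788 to 9530176, minus strand; ENSMUSG00000003882). Among prophylactic OT-II cells the 5 pGal libraries had 144, 110.1, 93.5, 80.6 and 75.8 CPM, the 4 OVA libraries 218, 216, 165 and 139 CPM, and the 5 saline libraries 250.3, 265, 278, 234 and 268 CPM. Every pGal library was below every saline library, and the highest pGal library lay just above the lowest OVA library. The log2 fold change was -0.92 ± 0.13 (SE) for pGal against OVA (adjusted p = 0.00637, edgeR) and -1.40 ± 0.13 for pGal against saline (adjusted p = 2.97e-05). Both calls held when any 1 library was left out. Within batch 1 the difference between pGal and OVA was -0.91 (adjusted p = 0.0282) and within batch 2, with 2 libraries in each group, it was -0.99 (adjusted p = 0.526, with 0 genes called in that batch). Against saline it was -1.21 within batch 1 (adjusted p = 0.00209) and -1.69 within batch 2 (adjusted p = 0.0876). For OVA against saline the value was -0.48 ± 0.13 and missed the threshold (adjusted p = 0.327).

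In prophylactic OT-I cells Il7r averaged 289 ± 94.3 CPM under pGal, 260.4 ± 48.3 under OVA and 415 ± 36.9 under saline (SD, n = 5 each). All 5 OVA libraries, at 186 to 319 CPM, lay below the 5 saline libraries, at 358 to 445 CPM, while the pGal libraries, at 176 to 427 CPM, overlapped the saline range. OVA against saline gave -0.63 ± 0.18 and just missed the threshold in edgeR (adjusted p = 0.0543), while limma voom (adjusted p = 0.0458) and DESeq2 (adjusted p = 0.00537) called it. Within batch 1 it was -0.88 and called (adjusted p = 0.0111), and within batch 2 it was -0.33 and not called (adjusted p = 0.436). For pGal against saline the value was -0.52 ± 0.18 (adjusted p = 0.127). The difference between pGal and OVA was 0.11 ± 0.18 in OT-I cells and -0.92 ± 0.13 in OT-II cells, and the interaction of 1.04 ± 0.24 between the cell types was called (adjusted p = 0.0492, edgeR; 0.519% of all genes called). In OT-I cells the sign of that difference turned between the batches, at 0.53 within batch 1 (adjusted p = 0.299) and -0.52 within batch 2 (adjusted p = 0.801). The interaction was 1.44 within batch 1 (adjusted p = 0.00770) and 0.48 within batch 2 (adjusted p = 0.674, with 0 genes called). When single prophylactic libraries were left out, its call held in 5 of 29 fits, those without OT-I batch 2 pGal 2, OT-I batch 2 OVA 1, OT-II batch 1 pGal 3, OT-II batch 2 OVA 2 or OT-II batch 2 saline 2, and elsewhere the adjusted p reached up to 0.136 at log2 values of 0.87 to 1.19 over all 29.

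**Figure D2:**
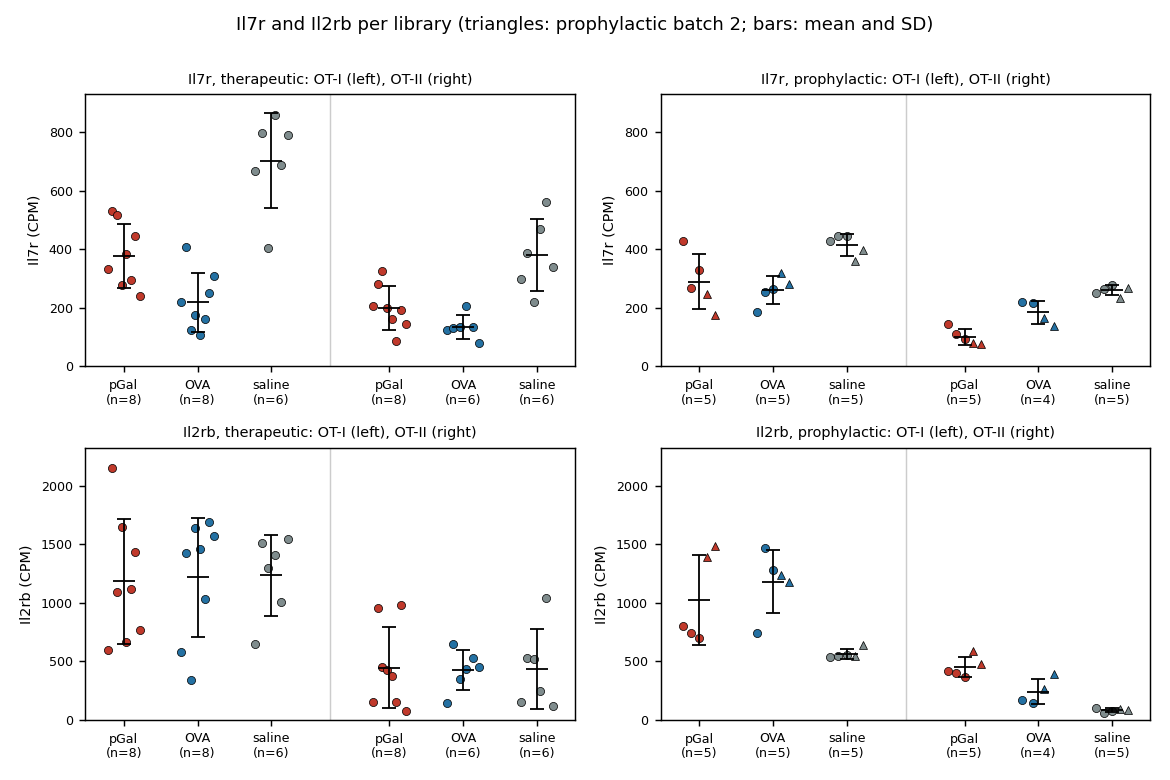
Normalized CPM of Il7r (top) and Il2rb (bottom) in each library, therapeutic experiment left and prophylactic right, with OT-I groups left and OT-II groups right in each panel; bars give the mean and SD, and triangles mark prophylactic batch 2. In prophylactic OT-II cells Il7r runs at 75.8 to 144 CPM under pGal and at 234 to 278 CPM under saline, while Il2rb runs at 367 to 590.1 CPM under pGal and at 62.4 to 101 CPM under saline.

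In the therapeutic experiment Il7r followed another order than in prophylactic OT-II cells, with the lowest medians under plain OVA in both cell types. In OT-I cells the 8 OVA libraries had 106 CPM at the lowest, 196 at the median and 406 at the highest, against 405, 740.1 and 859.9 CPM in the 6 saline libraries. The groups touched at 1 library each. The log2 fold change was -1.70 ± 0.25 (adjusted p = 0.00166, edgeR), it was called in all 22 fits that left out 1 library, and it was -1.68 with all libraries as labelled (adjusted p = 0.00664). In OT-II cells the 6 OVA libraries had 79.5, 132 and 207 CPM at the lowest, median and highest, and the 6 saline libraries 219, 363 and 562 CPM, with no overlap. The log2 fold change there was -1.52 ± 0.27 (adjusted p = 0.00768), called in all 20 fits that left out 1 library, and -1.55 as labelled (adjusted p = 0.00988).

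By median, the therapeutic pGal libraries lay between those groups in both cell types, but their range overlapped that of each group. Their lowest, median and highest Il7r values were 241, 357 and 529 CPM in OT-I cells (n = 8) and 85.8, 195 and 325 CPM in OT-II cells (n = 8). Against saline the values were -0.91 ± 0.25 in OT-I cells (adjusted p = 0.57, edgeR) and -0.93 ± 0.25 in OT-II cells (adjusted p = 0.174). DESeq2 called the OT-II value (adjusted p = 0.0296). Against OVA they were 0.79 ± 0.23 in OT-I cells (adjusted p = 1) and 0.59 ± 0.25 in OT-II cells (adjusted p = 0.672). In OT-II cells the therapeutic pGal against OVA difference exceeded the prophylactic one by 1.52 ± 0.34 on the log2 scale (adjusted p = 0.0492, edgeR; 0.232% of all genes called). That interaction was lost in all 14 fits that left out 1 prophylactic library, at 1.45 to 1.61 with adjusted p up to 0.133. With 1 prophylactic batch alone it was 1.51 for batch 1 and 1.53 for batch 2 (adjusted p = 0.421 and 0.309). It was lost too with all libraries as labelled, at 1.59 (adjusted p = 0.114), and without the B cell rich libraries, at 1.28 (adjusted p = 0.245). Experiment, handling of the cells, pooling of mice and count table cannot be told apart here.

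Il2rb encodes the beta chain that the IL-2 and IL-15 receptors share, and lies on chromosome 15 (78479256 to 78495271, minus strand; ENSMUSG00000068227). The 5 prophylactic OT-II pGal libraries had 415, 399, 367, 590.1 and 481 CPM, the 4 OVA libraries 169, 146, 261 and 388 CPM, and the 5 saline libraries 101, 62.4, 78.4, 95.1 and 86.0 CPM. Both antigen groups lay wholly above saline, and the highest OVA library overlapped the lowest pGal library. The log2 fold change was 2.38 ± 0.19 (SE) for pGal against saline (adjusted p = 1.04e-05, edgeR), 1.39 ± 0.20 for OVA against saline (adjusted p = 0.0145) and 0.99 ± 0.20 for pGal against OVA (adjusted p = 0.0229). Within batch 1 these were 2.26, 0.95 and 1.32, and within batch 2 they were 2.55, 1.87 and 0.68. The call for pGal against saline held in all 14 fits that left out 1 library. That for OVA against saline was lost without batch 1 saline 2, batch 2 saline 1 or batch 2 saline 2 (adjusted p up to 0.0859), and within either batch alone (adjusted p = 0.476 and 0.815). That for pGal against OVA was lost without any 1 of 6 libraries, batch 1 pGal 1 and 2, batch 2 pGal 1, batch 1 OVA 2 and 3, and batch 2 OVA 1 (adjusted p up to 0.105). It was called without the B cell rich libraries, among them batch 1 pGal 3 and batch 2 OVA 2 with raised Cd8a, at 1.25 (adjusted p = 0.00201).

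Il2rb in prophylactic OT-I cells started from a higher level. The 5 pGal libraries had 804, 738, 701 (batch 1), 1388 and 1488 CPM (batch 2), the 5 OVA libraries 741, 1471, 1278 (batch 1), 1235 and 1176 CPM (batch 2), and the 5 saline libraries 537 to 636 CPM. Neither antigen group overlapped saline. OVA against saline gave 1.09 ± 0.18 (adjusted p = 0.00273, edgeR), was called in all 15 fits that left out 1 library, and was 1.12 and 1.04 within batches 1 and 2. For pGal against saline the value was 0.82 ± 0.18 (adjusted p = 0.0251), 0.47 within batch 1 (adjusted p = 0.5505) and 1.28 within batch 2 (adjusted p = 0.0110). This call was lost without batch 2 pGal 1 or 2 or batch 2 saline 1 or 2 (adjusted p up to 0.0843); batch 2 saline 1 was the B cell rich one, and without it the value was 0.74 (adjusted p = 0.0720). The pGal against saline difference was smaller in OT-I than in OT-II cells by 1.56 on the log2 scale (interaction -1.56 ± 0.27, adjusted p = 0.00334, edgeR; 1.21% of all genes called). It was called in all 29 fits that left out 1 prophylactic library, and was -1.83 within batch 1 (adjusted p = 0.00460) and -1.27 within batch 2 (adjusted p = 0.303). The interaction for pGal against OVA was -1.26 ± 0.28 (adjusted p = 0.0431). It was -1.96 within batch 1 (adjusted p = 0.00382) and -0.44 within batch 2 (adjusted p = 0.717). Its call held in 14 of 29 fits that left out 1 prophylactic library, with adjusted p up to 0.134. It was lost without any 1 of the batch 1 OT-I pGal and saline libraries, batch 1 OT-I OVA 2 or 3, batch 1 OT-II pGal 1 or 2, either batch 2 OT-II pGal library, either batch 1 OT-II OVA library, or batch 2 OT-II OVA 1.

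In the therapeutic experiment no difference in Il2rb between treatments was detected, and its level varied widely within groups. In OT-II cells it averaged 447 ± 349 CPM under pGal (n = 8), 426 ± 171 under OVA (n = 6) and 434 ± 346 under saline (n = 6), with single libraries from 79.6 to 1041 CPM. In OT-I cells the means were 1183 ± 535 under pGal (n = 8), 1216 ± 510.2 under OVA (n = 8) and 1235 ± 348 under saline (n = 6). The 6 log2 fold changes lay between -0.07 and 0.08, with standard errors of 0.28 to 0.53, so a moderate change could not have been seen.

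Il2ra encodes CD25, the chain that gives the IL-2 receptor high affinity, and lies on chromosome 2 (11642807 to 11693193, plus strand; ENSMUSG00000026770). In therapeutic OT-II cells the 6 OVA libraries had 1.88 CPM at the lowest, 5.51 at the median and 16.4 at the highest, against 10.8, 30.7 and 55.7 CPM in the 6 saline libraries, and the ranges overlapped. The log2 fold change was -2.27 ± 0.56 (adjusted p = 0.0412, edgeR). It was lost in 11 of 20 fits that left out 1 library (OVA 1, 3, 4, 5 or 7, pGal 2 or 6, saline 1, 2, 6 or 7; adjusted p up to 0.1205), with no filter (adjusted p = 0.0532), in limma voom (adjusted p = 0.0531) and with all libraries as labelled, at -1.79 (adjusted p = 0.0769). In therapeutic OT-I cells Il2ra averaged 11.1 ± 6.19 CPM under OVA (n = 8) and 23.6 ± 2.55 under saline (n = 6), and the difference of -1.12 ± 0.34 missed the threshold (adjusted p = 0.154), but was called without OVA 10, at -1.02 (adjusted p = 0.0235). The therapeutic pGal libraries averaged 19.2 ± 5.48 CPM in OT-I and 16.1 ± 13.3 CPM in OT-II cells, with no call.

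Il2ra is also high in regulatory T cells, so a list of 6 regulatory T cell markers (Foxp3, Ikzf2, Ikzf4, Ctla4, Tnfrsf18, Gpr83) was set beside it. In therapeutic OT-II cells their summed level was 218 to 394 CPM under OVA (median 233) and 202 to 449 CPM under saline (median 375). Of the 6, 1 was called, Ikzf4, lower under OVA, beside 1.54% of all genes. Foxp3, which defines these cells, averaged 19.4 ± 11.3 CPM under pGal (n = 8), 8.39 ± 6.49 under OVA (n = 6) and 20.8 ± 13.8 under saline (n = 6). For OVA against saline its log2 fold change was -1.34 ± 0.50, the same direction as that of Il2ra, and missed the threshold (adjusted p = 0.188, edgeR). The sum in prophylactic OT-II cells was 246 to 499 CPM under pGal, 154 to 244 under OVA and 107 to 199 under saline. There 2 of 6, Ikzf2 and Ctla4, were called higher for pGal against saline and 1, Ctla4, for pGal against OVA, beside 11.7% and 1.87% of all genes. In these prophylactic cells Il2ra was not called. Its log2 fold change there was 0.76 ± 0.23 for OVA against saline (adjusted p = 0.414, edgeR). It was 0.47 ± 0.22 for pGal against saline (adjusted p = 0.202) and -0.29 ± 0.23 for pGal against OVA (adjusted p = 0.657). None of the 6 was under 1 CPM in every library of these OT-II groups, and their part in the receptor results was not tested. Since these are bulk libraries, fewer cells that carry a transcript and less transcript per cell cannot be told apart.

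Il4ra and Il21r encode the chains that join the common gamma chain for IL-4 and IL-21, and Il4ra also serves IL-13. They are neighbours on the plus strand of chromosome 7, Il4ra at 125552120 to 125579474 (ENSMUSG00000030748) and Il21r at 125603429 to 125633570 (ENSMUSG00000030745), 23954 bases apart. The pGal libraries of prophylactic OT-II cells had 282, 253, 348, 381 and 338 CPM of Il4ra, the 4 OVA libraries 442, 595, 520.1 and 465.7 CPM, and the 5 saline libraries 558, 429, 474, 501 and 580 CPM. The pGal libraries lay below all others. The log2 fold change was -0.66 ± 0.13 for pGal against OVA (adjusted p = 0.0184, edgeR), -0.67 ± 0.12 for pGal against saline (adjusted p = 0.00296) and -0.01 ± 0.13 for OVA against saline. Within batches 1 and 2 the values were -0.82 and -0.49 against OVA (adjusted p = 0.0638 and 0.526) and -0.74 and -0.60 against saline. The call against OVA was lost without batch 1 pGal 1 or 2, batch 2 pGal 2 or batch 1 OVA 2 (adjusted p up to 0.0843), whereas the call against saline held in all 14 such fits.

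Il21r in the same cells had 323, 322, 359, 414 and 343 CPM in the pGal libraries, 419, 500.0, 410.0 and 397 CPM in the OVA libraries, and 586, 436, 497, 499 and 467 CPM in the saline libraries. The pGal libraries lay below every saline library and overlapped the OVA range. The change against saline was -0.50 ± 0.10 (adjusted p = 0.0066, edgeR), -0.62 within batch 1 and -0.37 within batch 2 (adjusted p = 0.0209 and 0.434), and it was called in all 14 fits that left out 1 library. Against OVA it was -0.30 ± 0.11 (adjusted p = 0.19). Neither gene was called in prophylactic OT-I cells, and the 6 values lay between -0.08 and -0.01. The cell types differed in the pGal against saline change of Il4ra (interaction 0.62 ± 0.15, adjusted p = 0.0452), but the call held in only 9 of 29 fits that left out 1 prophylactic library (adjusted p up to 0.110). Those 9 left out any 1 of the 4 OT-II OVA libraries, OT-I batch 1 OVA 3, OT-II batch 1 pGal 3, OT-II batch 2 pGal 1, OT-II batch 1 saline 2 or OT-II batch 2 saline 1. Within batch 1 this interaction was 0.68 (adjusted p = 0.150) and within batch 2 it was 0.49 (adjusted p = 0.546). The corresponding interaction for Il21r was 0.42 ± 0.13 (adjusted p = 0.117). In the therapeutic experiment 0 of the 6 tests of each gene between treatments were called by edgeR, with 1 of Il4ra (OVA against saline in OT-I cells, -0.45 ± 0.19) and 0 of Il21r at an unadjusted p under 0.05, and DESeq2 and limma voom called neither gene there.

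**Figure D3:**
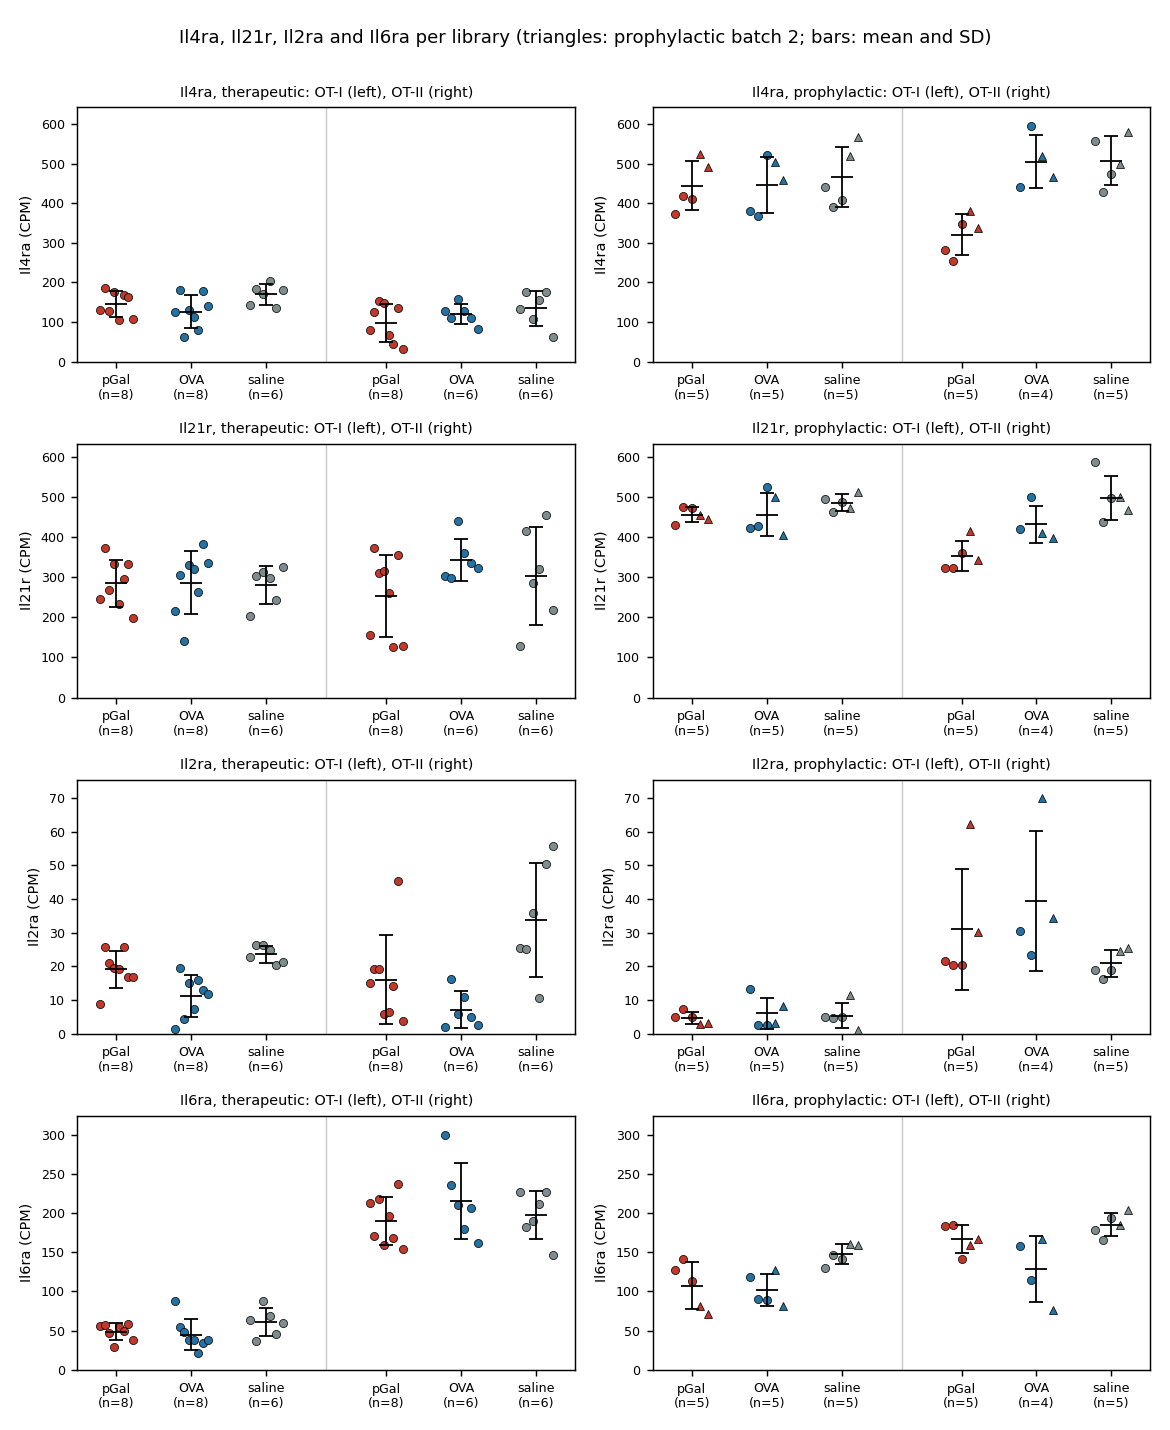
Normalized CPM of Il4ra, Il21r, Il2ra and Il6ra in each library, therapeutic experiment left and prophylactic right, with OT-I groups left and OT-II groups right in each panel; bars give the mean and SD, and triangles mark prophylactic batch 2. Il4ra in prophylactic OT-II cells runs at 253 to 381 CPM under pGal and at 429 to 580 CPM under saline, and Il6ra in the therapeutic experiment runs at 20.9 to 88.2 CPM in OT-I libraries and at 147 CPM or more in OT-II libraries.

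Because Il7r, Il4ra and Il21r fell together under pGal in prophylactic OT-II cells, their promoter windows are shown. Each runs from 250 bases before the gene start annotated in RefSeq to 50 bases from it on. The gene coordinates given above are from GENCODE M21, whose starts differ for Il7r and Il4ra. The Il7r window lies wholly inside the gene as GENCODE places it (start at 9530176, minus strand). The GENCODE start of Il4ra, at 125552120, falls within the Il4ra window. The sequences are RefSeq's on GRCm38.p6, in the direction of transcription, at chr15:9529827-9530126 (minus strand), chr7:125552021-125552320 (plus strand) and chr7:125603179-125603478 (plus strand). Capitals mark matches to 5 motifs searched on both strands: CCGGAA (ETS), TGTGGT (RUNX), GTAAACA (FOXO), TTCNNNGAA (STAT) and TCACACC (T-box).
Il7r: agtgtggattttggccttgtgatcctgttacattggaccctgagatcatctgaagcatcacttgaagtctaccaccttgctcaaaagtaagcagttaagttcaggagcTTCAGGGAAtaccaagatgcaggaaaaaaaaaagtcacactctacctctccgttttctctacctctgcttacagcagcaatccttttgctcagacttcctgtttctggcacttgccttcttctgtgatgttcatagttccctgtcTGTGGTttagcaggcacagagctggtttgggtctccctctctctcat
Il4ra: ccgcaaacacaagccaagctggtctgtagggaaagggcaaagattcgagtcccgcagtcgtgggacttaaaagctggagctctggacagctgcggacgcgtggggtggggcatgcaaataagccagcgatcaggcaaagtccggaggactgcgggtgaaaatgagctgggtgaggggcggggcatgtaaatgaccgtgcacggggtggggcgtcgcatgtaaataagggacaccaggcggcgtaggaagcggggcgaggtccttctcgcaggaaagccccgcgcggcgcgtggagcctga
Il21r: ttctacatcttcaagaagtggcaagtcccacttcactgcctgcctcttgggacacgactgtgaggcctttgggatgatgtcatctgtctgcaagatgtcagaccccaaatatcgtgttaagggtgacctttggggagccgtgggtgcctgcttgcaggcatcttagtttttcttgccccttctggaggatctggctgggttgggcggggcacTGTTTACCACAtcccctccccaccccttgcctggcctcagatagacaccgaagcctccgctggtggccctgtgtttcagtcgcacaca

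The Il7r window holds 1 STAT match, at bases 109 to 117, and 1 RUNX match, at bases 254 to 259, just past the RefSeq start. The Il21r window holds a FOXO match on the reverse strand at bases 213 to 219 that overlaps a reverse-strand RUNX match at bases 218 to 223, printed as 1 run of capitals. The Il4ra window holds none of the 5, as do those of Il2ra and Il6ra. Il2rg has an ETS and a RUNX match, and 1 of the 2 windows of Il15ra has an ETS match. Il2rb was named only. Of all 32851 promoter windows in the table, 14.9% hold the ETS letters, 16.8% RUNX, 3.65% FOXO, 8.3% STAT and 3.98% T-box. These are matches of letters, and binding was not measured.

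Il2rg was called in 0 of the 12 comparisons between treatments by edgeR and had an unadjusted p under 0.05 in 0 of them. It lies on the X chromosome (101264378 to 101268255, minus strand; ENSMUSG00000031304). Its group means ran from 932 ± 428 CPM in therapeutic OT-II pGal libraries (n = 8) to 1863 ± 229 CPM in prophylactic OT-I saline libraries (n = 5). In the 6 prophylactic comparisons between treatments its log2 fold change stayed between -0.09 and 0.06, with standard errors of 0.08 to 0.13. In the therapeutic ones it lay between -0.35 and 0.14, and the therapeutic OT-II pGal group included a library at 166 CPM.

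Il15ra, the IL-15 alpha chain that can present IL-15 to neighbouring cells, and Il6ra complete the set. Il15ra lies 12096 bases from Il2ra on chromosome 2 (11705290 to 11734317, plus strand; ENSMUSG00000023206), and Il6ra lies on chromosome 3 (89864059 to 89913196, minus strand; ENSMUSG00000027947). Il15ra was low everywhere, with group means from 9.74 ± 4.48 CPM in prophylactic OT-II OVA libraries (n = 4) to 37.2 ± 5.72 CPM in therapeutic OT-I saline libraries (n = 6). Il6ra in prophylactic OT-I cells averaged 107 ± 29.9 CPM under pGal, 101 ± 20.3 under OVA and 147 ± 12.8 under saline (SD, n = 5 each). The OVA libraries, at 81.3 to 127 CPM, all lay below the saline libraries, at 129.8 to 160.4 CPM. The change of -0.52 ± 0.17 was not called by edgeR (adjusted p = 0.0869) or limma voom, but was by DESeq2 (adjusted p = 0.0205). It was also called by edgeR without batch 2 OVA 1, at -0.66 (adjusted p = 0.0269).

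Set against each other in the prophylactic saline mice, which were given no antigen, the cell types differed in the receptors that bind IL-2 and IL-7. In prophylactic saline libraries 4 of 8 genes were called for OT-I against OT-II, where 18% of all genes were called. Il2rb averaged 564 ± 40.9 CPM in OT-I and 84.7 ± 15.2 CPM in OT-II cells, a log2 difference of 2.71 ± 0.20 (adjusted p = 8.16e-10, edgeR). Il2ra averaged 5.38 ± 3.80 CPM in OT-I and 20.9 ± 3.95 CPM in OT-II cells, and the 2 ranges did not overlap (log2 -2.04 ± 0.47, adjusted p = 0.00295). In these libraries Foxp3 averaged 3.15 ± 3.76 CPM in OT-I and 18.9 ± 4.70 CPM in OT-II cells. The 6 regulatory T cell markers summed to 110 to 142 CPM in OT-I and 107 to 199 CPM in OT-II cells. Their part in the Il2ra difference was not tested. Il7r was higher in OT-I cells, at 415 ± 36.9 against 259 ± 17.2 CPM (0.68 ± 0.17, adjusted p = 0.00472), as was Il2rg, at 1863 ± 229 against 1459 ± 217 CPM (0.34 ± 0.11, adjusted p = 0.0255; n = 5 each). The Il2rg ranges overlapped, and its call was lost without any 1 of OT-I batch 1 saline 3, OT-I batch 2 saline 2, OT-II batch 1 saline 2 and OT-II batch 2 saline 1 (adjusted p up to 0.141). Without the B cell rich libraries Il2ra differed by -2.97. The 2 cell types were transferred together, and the labels do not say which libraries share mice.

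In therapeutic saline libraries 4 of 8 were called, where 9% of all genes were called, with the smallest adjusted p for Il6ra. Il6ra had 36.7 CPM at the lowest, 62.0 at the median and 87.8 at the highest in 6 OT-I libraries, against 147, 201 and 227 CPM in 6 OT-II libraries, with no overlap (log2 -1.69 ± 0.24, adjusted p = 1.24e-06, edgeR). Il15ra was higher in OT-I cells, at 37.2 ± 5.72 against 22.0 ± 7.07 CPM (0.77 ± 0.23, adjusted p = 0.0255). Il7r, at 702 ± 162 against 379 ± 123 CPM (0.89 ± 0.28, adjusted p = 0.0353), and Il2rb, at 1235 ± 348 against 434 ± 346 CPM (1.52 ± 0.47, adjusted p = 0.0334), were higher in OT-I cells with overlapping ranges. With all libraries as labelled, which mixes the lineages, none of the 4 was called. Without the B cell rich libraries only Il6ra of the 4 was called, and Il7r, Il2rb and Il15ra had adjusted p of 0.0774, 0.0899 and 0.0960. Summed over 8 NK cell markers the OT-I saline libraries had 290.4 to 868 CPM and the OT-II saline libraries 13.7 to 109 CPM, and 3 of the 8 (Klrb1c, Gzma, Klrc2) were called higher in OT-I cells; their part in the result was not tested.

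Saline libraries of the 2 experiments also differed, with immunization, time since transfer, handling and count table all changing together. In OT-I cells 7 of 8 genes were called for therapeutic against prophylactic, where 21.6% of all genes were called. Il2ra was higher (23.6 ± 2.55 against 5.38 ± 3.80 CPM, log2 2.16 ± 0.50), as were Il15ra (37.2 ± 5.72 against 15.8 ± 2.49 CPM, 1.25 ± 0.19), Il2rb (1235 ± 348 against 564 ± 40.9 CPM, 1.11 ± 0.32) and Il7r (702 ± 162 against 415 ± 36.9 CPM, 0.80 ± 0.27; n = 6 and 5). Il4ra (170.2 ± 26.1 against 465.8 ± 76.2 CPM, -1.45 ± 0.19), Il6ra (60.6 ± 17.9 against 147 ± 12.8 CPM, -1.25 ± 0.25) and Il21r (281 ± 47.6 against 485 ± 20.3 CPM, -0.77 ± 0.17) were lower. The adjusted p of the 7 lay between 5.34e-07 and 0.0274 in edgeR. Il7r had the highest, and lost its call without any 1 of the 5 prophylactic saline libraries (adjusted p up to 0.0723). As labelled, Il7r, Il2rb and Il6ra were not called (adjusted p = 0.183, 0.178 and 0.329).

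In OT-II saline libraries 3 of 8 were called for therapeutic against prophylactic, where 16.6% of all genes were called. Il4ra was lower (135 ± 44.6 against 508 ± 61.6 CPM, log2 -1.92 ± 0.29, adjusted p = 1.17e-05, edgeR), and Il2rb was higher (434 ± 346 against 84.7 ± 15.2 CPM, 2.29 ± 0.52, adjusted p = 0.00252). Il21r was lower (303 ± 121 against 497 ± 55.9 CPM, -0.71 ± 0.25, adjusted p = 0.0448), with overlapping ranges. It was called in 2 of 14 fits that left out 1 prophylactic library, those without batch 1 pGal 3 or batch 1 OVA 2 (adjusted p up to 0.0974 in the others), and not called without the B cell rich libraries (adjusted p = 0.191). Il6ra averaged 197 ± 31.0 CPM in therapeutic and 185 ± 14.8 CPM in prophylactic OT-II libraries (0.10 ± 0.17, adjusted p = 0.714).

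Levels of different genes were compared only per length, as CPM per kb of merged exons. Il2rg was first in all 4 saline groups, at 583 ± 124 and 781 ± 96.1 in therapeutic and prophylactic OT-I cells and at 453 ± 228 and 611 ± 91.0 in therapeutic and prophylactic OT-II cells. Il2ra was last in both OT-I groups, at 4.14 ± 0.45 and 0.94 ± 0.67. In prophylactic OT-I cells Il21r (146 ± 6.11), Il2rb (131 ± 9.55), Il7r (89.0 ± 7.92) and Il4ra (77.6 ± 12.7) followed Il2rg, and Il7r and Il4ra did not differ beyond their spread. In prophylactic OT-II cells Il21r came second (149.5 ± 16.8) and Il2rb sixth (19.8 ± 3.55), next to Il6ra (21.4 ± 1.71). In therapeutic OT-II cells Il2rb (101 ± 80.6), Il21r (91.2 ± 36.4) and Il7r (81.3 ± 26.4) lay within each other's spread, and with the length of the longest transcript 7 of the 8 genes changed rank there.

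**Figure D4:**
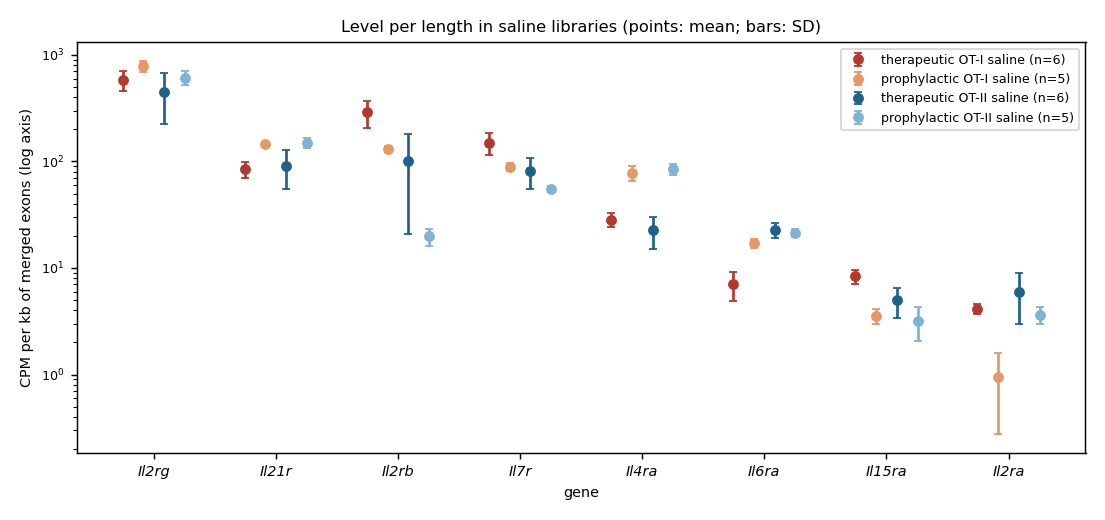
Mean level per length (CPM per kb of merged exons, log axis) of the 8 receptor genes in the 4 groups of saline libraries, with SD bars. Il2rg is highest in every group, from 453 to 781, and Il2ra lies at 5.93 in therapeutic OT-II and at 0.94 in prophylactic OT-I libraries.

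The other genes of these pathways were counted in 5 lists: 8 further receptor chains, 12 ligands, 10 kinases and STATs, 12 targets and feedback inhibitors of cytokine signals, and 10 transcription factors that act on receptor genes. In prophylactic OT-II cells for pGal against saline, where 11.7% of all genes were called, 1 of 8 chains rose, 4 of 10 kinases and STATs rose (Jak2, Jak3, Tyk2 and Stat4), 2 of 12 targets fell, and 2 of 10 transcription factors rose while 1, Klf2, fell. Of the 6 ligands tested, Il2 rose and Osm fell. The median log2 fold change was 1.12 for the chains, 0.48 for the ligands, 0.20 for the kinases and STATs, -0.40 for the targets and 0.13 for the transcription factors, beside 0.04 for all genes. Socs3, an inhibitor of IL-6 receptor signalling, averaged 79.5 ± 32.3 CPM under pGal and 206 ± 105 under saline (log2 -1.41 ± 0.20, adjusted p = 0.000755, edgeR). Socs1, an inhibitor of JAK kinases, averaged 41.2 ± 3.28 CPM under pGal and 80.7 ± 23.3 under saline (-0.94 ± 0.20, adjusted p = 0.00902). Eomes, a T-box factor that acts on the Il2rb gene, averaged 15.6 ± 8.40 CPM under pGal and 4.21 ± 1.69 under saline (1.79 ± 0.30, adjusted p = 0.00212). Crlf2, which joins Il7r in the TSLP receptor, averaged 35.9 ± 6.12 CPM under pGal and 21.9 ± 6.72 under saline (0.73 ± 0.14, adjusted p = 0.00433; n = 5 each).

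For pGal against OVA in those cells, with 1.87% of all genes called, 1 gene over the 5 lists was called, Jak3, the kinase bound to the common gamma chain. It averaged 412 ± 41.1 CPM under pGal (n = 5) and 263 ± 50.2 under OVA (n = 4; log2 0.64 ± 0.15, adjusted p = 0.0434, edgeR). For OVA against saline, with 0.163% of all genes called, 1 was called, Eomes, at 18.4 ± 7.99 CPM under OVA (n = 4) and 4.21 ± 1.69 under saline (n = 5; 1.99 ± 0.32, adjusted p = 0.0277). In edgeR the B cell, myeloid and NK cell markers were called in none of the 3 prophylactic OT-II comparisons, although single libraries were high: the summed B cell markers ran from 42.7 to 3939 CPM under pGal, 70.2 to 7560 under OVA and 55.9 to 828.7 under saline.

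Tbx21 (T-bet, the other T-box factor that acts on Il2rb) averaged, in prophylactic OT-I cells, 152 ± 99.4 CPM under pGal, 200.5 ± 44.5 under OVA and 51.8 ± 11.1 under saline (SD, n = 5 each). It rose by 1.42 ± 0.27 for pGal against saline (adjusted p = 0.0152, edgeR) and by 2.04 ± 0.27 for OVA against saline (adjusted p = 0.000793). Of the 12 targets, the survival gene Bcl2l1 rose and Myc fell in both comparisons, with Bcl2l1 at 44.1 ± 9.04 CPM under pGal, 46.4 ± 10.6 under OVA and 25.7 ± 4.70 under saline, and Myc at 207 ± 55.7, 202 ± 30.9 and 284 ± 22.0 CPM. Il2 was the 1 ligand called of 4 tested in each, higher with antigen. For pGal against saline the mean of Il2 was under 10 CPM in both groups. In both comparisons 0 of the 10 kinases and STATs and 0 of the 8 chains were called, beside 3.35% and 5.39% of all genes. Eomes rose for OVA against saline, at 126 ± 29.6 against 71.9 ± 10.4 CPM (0.84 ± 0.20, adjusted p = 0.0234).

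In the therapeutic experiment Cish and Bcl2, both targets of IL-2 and IL-7 receptor signals, fell under plain OVA in both cell types, as Il7r did. Receptor signals were not measured, and a link between these falls was not tested. Cish, a feedback inhibitor that STAT5 induces, averaged 13.2 ± 7.32 CPM under OVA and 74.2 ± 33.3 under saline in OT-II cells (n = 6 each; log2 -2.52 ± 0.42, adjusted p = 0.00381, edgeR). In OT-I cells it averaged 31.5 ± 13.1 CPM under OVA (n = 8) and 73.7 ± 20.8 under saline (n = 6; -1.25 ± 0.25, adjusted p = 0.0191). Bcl2, a survival gene that IL-7 maintains, averaged 90.9 ± 34.3 CPM under OVA and 264 ± 124 under saline in OT-I cells (-1.56 ± 0.26, adjusted p = 0.00413). In OT-II cells it averaged 59.0 ± 20.7 CPM under OVA and 119.5 ± 32.8 under saline (-1.05 ± 0.26, adjusted p = 0.0468). In all, 2 of the 12 targets fell in OT-I cells and 3 in OT-II cells, the third being Socs1 (64.8 ± 15.9 CPM under OVA against 124 ± 12.0 under saline, adjusted p = 0.0144), and 0 rose, beside 0.48% of all genes called in OT-I and 1.54% in OT-II cells. The median of the 12 was -0.55 in both, beside 0.08 for all genes in OT-I and -0.07 in OT-II cells. Il4 rose in OT-II cells, to 20.4 ± 21.2 CPM under OVA, against 3.83 ± 1.78 under saline (2.38 ± 0.52, adjusted p = 0.0210), while Osm and the transcription factor Klf2 fell. The summed NK cell markers of the OT-I libraries ran from 82.0 to 1346 CPM under OVA and from 290.4 to 868 under saline, with 0 of 8 called. In the 4 therapeutic comparisons with pGal, and in prophylactic OT-I cells for pGal against OVA, edgeR called 0 genes of the 5 lists. Of all genes, 0.00702% were called for therapeutic pGal against saline in OT-II cells and 0% in the others, so these counts say little about the lists.

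Between OT-I and OT-II cells in saline the lists moved both ways. In prophylactic libraries, where 18% of all genes were called, 4 of 12 targets were higher in OT-I cells and 3 lower, 3 of 10 transcription factors higher and 3 lower, 2 of 10 kinases and STATs higher, 1 of 8 chains higher and 3 of 6 tested ligands lower. Eomes averaged 71.9 ± 10.4 CPM in OT-I and 4.21 ± 1.69 in OT-II cells (log2 4.05 ± 0.29), Tbx21 averaged 51.8 ± 11.1 and 9.08 ± 1.41 CPM (2.50 ± 0.48), and the kinase gene Pim2 averaged 447 ± 60.6 and 147 ± 23.7 CPM (1.57 ± 0.12). Runx1 was lower in OT-I cells, at 40.2 ± 9.60 against 106 ± 22.8 CPM (-1.40 ± 0.16; adjusted p from 2.73e-10 to 0.00061 for these 4 genes in edgeR; n = 5 each). In therapeutic libraries, where 9% of all genes were called, 4 targets were higher, 2 transcription factors higher and 1 lower, 1 of the kinases and STATs lower, 2 chains lower and 3 of 7 tested ligands lower. Eomes (116.5 ± 22.5 CPM in OT-I, 4.27 ± 2.21 in OT-II) and Tbx21 (422 ± 114 CPM in OT-I, 59.6 ± 41.3 in OT-II) were again higher in OT-I cells. Il21, at 0.52 ± 0.68 CPM in OT-I and 26.6 ± 7.03 in OT-II cells, and the IL-9 receptor chain Il9r, at 2.65 ± 1.91 CPM in OT-I and 16.3 ± 8.15 in OT-II cells, were lower (adjusted p from 1.55e-10 to 0.0108 for these 4 genes; n = 6 each).

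Between the experiments in saline, with 21.6% of all genes called, therapeutic OT-I cells had 5 of 12 targets higher and 1 lower, 4 transcription factors higher and 2 lower, 0 kinases and STATs higher and 5 lower (all STATs), 1 chain higher and 2 lower, and 3 of 6 tested ligands higher. Cish averaged 73.7 ± 20.8 CPM in therapeutic and 11.4 ± 1.90 in prophylactic OT-I cells (log2 2.74 ± 0.29), and Tbx21 averaged 422 ± 114 and 51.8 ± 11.1 CPM (2.99 ± 0.32). Il6st, the gp130 chain that signals for Il6ra, was lower, at 106 ± 47.9 CPM in therapeutic and 370.5 ± 95.6 in prophylactic OT-I cells (-1.81 ± 0.26, adjusted p = 2.11e-06, edgeR), where Il6ra was lower as well. Socs2 averaged 11.5 ± 2.21 CPM in therapeutic and 1.97 ± 0.95 in prophylactic OT-I cells. In OT-II cells, with 16.6% of all genes called, 2 targets were higher, 3 transcription factors higher and 3 lower, 2 kinases and STATs higher, 2 chains higher and 4 of 9 tested ligands higher. Il21 averaged 26.6 ± 7.03 CPM in therapeutic and 0.84 ± 1.11 in prophylactic OT-II cells, Lif 11.8 ± 8.70 and 0.95 ± 0.73 CPM, Tbx21 59.6 ± 41.3 and 9.08 ± 1.41 CPM, and Il9r 16.3 ± 8.15 and 3.07 ± 2.45 CPM (n = 6 and 5; adjusted p from 1.04e-05 to 0.0249, edgeR).

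Among the interaction terms, those not described above called 0 of the 8 genes in edgeR. Between OT-I and OT-II cells this holds for the prophylactic OVA against saline change (0.0337% of all genes called; 0 receptor genes at an unadjusted p under 0.05, and 0 in DESeq2 and limma voom) and for the 3 therapeutic changes (0%, 0% and 0.121%; 0, 0 and 0 at an unadjusted p under 0.05). Between the experiments it holds for the 3 changes in OT-I cells (pGal against OVA 0%, pGal against saline 0.11%, OVA against saline 0.266%), where 0, 1 and 2 receptor genes had an unadjusted p under 0.05. In OT-II cells it holds for pGal against saline (0.8%) and OVA against saline (0.0967%), with 2 and 3 such genes, and DESeq2 called Il2ra for the last of these, at -3.05 (adjusted p = 0.00349). The Il2rb change for pGal against saline differed between the experiments by -2.33 ± 0.67 in OT-II cells and missed the threshold (adjusted p = 0.111).

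Over the 71 libraries used, the 3 genes whose log2(CPM + 1) followed each receptor gene most closely were found among 8668 genes with a mean of at least 10 CPM. For Il2ra the first was Cish (Pearson r = 0.736), followed by Fasl (0.662) and Btg2 (0.655), and for Il7r they were Nop56 (0.762), Il18r1 (0.725) and Smpd5 (0.717). Il2rb was followed most closely by Golm1 (0.874), Ppp3cc (0.867) and Paqr4 (0.864), and Il15ra by Slc20a1 (0.757), Runx2 (0.745) and Id2 (0.744). The coefficients were higher for Il4ra (Galnt10, 0.909), Il21r (Sdha, 0.917), Il6ra (Timp2, 0.912) and Il2rg (Bcap31, 0.920). These are descriptions, since the libraries share cell type, experiment and treatment.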

How the data were processed

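Polyadenylated RNA of sorted OT-I and OT-II cells was made into SmartSeq v4 and Nextera libraries, per the labels' protocols. The authors deposited 3 tables of expected counts for protein-coding genes. Per the submitters' processing notes, bcl2fastq and kallisto 0.46.1 were used, with GRCm38 as the build. The sources used here do not give the step from transcripts to whole-number gene values. Estimated counts can shift reads between genes of similar sequence, and no molecular identifiers were used. Library totals were 21.2 to 68.2 M, and precision was taken from the spread between libraries. The labels tie each therapeutic library to 1 mouse and each prophylactic library to 3 pooled mice, so replicates are animals or pools.

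Therapeutic rows were matched to symbols by gene identifier through the prophylactic tables, and coordinates and lengths come from GENCODE M21. Groups are the labelled combinations of experiment, cell type and treatment; 11 therapeutic libraries whose Cd4 and Cd8a went against the label were left out. Counts were filtered with filterByExpr, scaled by TMM and fitted with the robust quasi-likelihood test of edgeR 4.0.16 in R 4.3.3, with a batch term in the prophylactic fits and p-values adjusted by Benjamini-Hochberg over all genes. Separate fits compared OT-I with OT-II, and therapeutic with prophylactic, in saline, and held the interactions. Printed CPM are on 1 TMM scale over all 82 libraries, except those of Cd4, Cd8a and Cd79a, which are per total count of the library. The fits were tested on simulated data. Alternatives were relative log expression factors, no filter, DESeq2 1.42.0, limma 3.58.1 voom, a replicate block, all libraries as labelled, each batch alone, leaving out B cell rich or Cd4 rich libraries, leaving out each library in turn in the comparisons of treatments, and leaving out each prophylactic saline library in the other fits. After the data were seen, the prophylactic pGal and OVA libraries were also left out in turn in those other fits, each prophylactic batch was used alone there, and the block was tried for the interactions between cell types. No single therapeutic library was left out of the fits over both cell types or both experiments. All 8 receptor genes were named in every comparison, with up to 4 called genes of the pathway lists at 10 CPM or more, by absolute log2 fold change; further called list genes are named without values. The receptor genes, the lists and the motifs were chosen with earlier results of these data known. The myeloid list had 9 of 10 genes matched by symbol. Promoters matched for 7 of the 8 genes.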

Additional observations from a re-analysis of the deposited data

Results flagged for a closer look

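Single libraries stood apart from their group in 5 of 96 combinations of gene and group that were tested by the gap to the nearest library, and about 1 in 20 would be picked out by chance. Il2ra had 62.2 CPM in prophylactic OT-II batch 2 pGal 1, against 20.3 to 30.3 CPM in the other 4 pGal libraries, and 45.3 CPM in therapeutic OT-II pGal 8, against 3.68 to 19.3 CPM in the other 7. Il2rg had 2547 CPM in therapeutic OT-I pGal 1, against 803 to 1494 CPM in the other 7, and in therapeutic OT-II OVA 1 it was low, at 1013 CPM, against 1217 to 1261 CPM in the other 5. Il2rb had 636 CPM in prophylactic OT-I batch 2 saline 2, against 537 to 556 CPM in the other 4 saline libraries.

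In 5 cases the effect itself differed between groups by an interaction term in edgeR. Between OT-I and OT-II cells of the prophylactic experiment the pGal against OVA change differed for Il7r (1.04) and Il2rb (-1.26), and the pGal against saline change for Il2rb (-1.56) and Il4ra (0.62), as OT-I minus OT-II on the log2 scale. Between the experiments the pGal against OVA change of Il7r in OT-II cells differed by 1.52, as therapeutic minus prophylactic. These interactions share libraries with one another. Of the 5, the Il2rb change for pGal against saline was the 1 called in every fit that left out a single prophylactic library.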

How the results depend on the processing

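Over 224 log2 fold changes and interactions of the 8 genes, 5272 values under other settings were compared with the main ones: 5061 kept their side of the threshold, 184 lost a call, 27 gained one and 0 called values changed direction. The number of genes called changed by over 1.5 times as follows. In prophylactic OT-I cells OVA against saline (1 called) became 2 with relative log expression factors, 2 in limma voom, 3 in DESeq2 and 2 within batch 1. There pGal against saline (1 called) became 2 in DESeq2, 0 without the B cell rich library and 0 within batch 1. In prophylactic OT-II cells batch 2 alone, with 2 libraries a group, called 0 in each of the 3 comparisons (3, 4 and 1 in the whole), and batch 1 alone called 0 for OVA against saline. In therapeutic OT-II cells OVA against saline (2 called) became 1 with no filter, 1 in limma voom and 1 as labelled, and pGal against saline (0 called) became 1 in DESeq2. OT-I against OT-II in therapeutic saline (4 called) became 2 with no filter, 0 as labelled and 1 without the B cell rich libraries. Therapeutic against prophylactic in OT-I saline (7 called) became 4 as labelled and 4 with prophylactic batch 2 alone. With that batch alone OT-I against OT-II in prophylactic saline (4 called) became 1, and therapeutic against prophylactic in OT-II saline (3 called) became 1. Leaving out single libraries gave 0 to 2 genes for pGal against saline and 1 to 3 for OVA against saline in prophylactic OT-I cells. In prophylactic OT-II cells it gave 1 to 3 for pGal against OVA, 0 to 1 for OVA against saline and 4 throughout for pGal against saline. In the therapeutic OVA against saline comparisons it gave 1 to 2 in OT-I and 1 to 2 in OT-II cells. Single batches hold fewer libraries and the fits as labelled mix the lineages, but the causes of these changes were not tested.

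Replicate numbers were tried as a block. Libraries of 1 number did not deviate together across treatments (median correlations of -0.0076, -0.016, -0.015 and -0.0128 in the 4 sets of groups), so the numbers do not pair them across treatments. With the replicate block, 1 gene was called for pGal against OVA and 0 for OVA against saline in prophylactic OT-II cells, and 0 for OVA against saline in therapeutic OT-II cells, where Il7r was -1.55 and Il2ra -2.08 (adjusted p = 0.0786 and 0.137). The calls lost in prophylactic OT-II cells were those of Il2rb (0.95, adjusted p = 0.0796) and Il4ra (-0.67, adjusted p = 0.0944) for pGal against OVA and of Il2rb (1.46, adjusted p = 0.0561) for OVA against saline. Between OT-I and OT-II libraries of 1 treatment, same-numbered pairs had a median correlation of 0.186 in the therapeutic experiment, with 11 of 19 pairs over 0.1, and of 0.0879 in the prophylactic one, with 7 of 14 over 0.1; pairs of other numbers had medians of -0.0227 and -0.0293. The best partner had the same number for 18 of 38 therapeutic and 21 of 28 prophylactic libraries, a hint from the data, not the design. Prophylactic libraries were matched within a batch and had fewer candidates, so these 2 shares cannot be set against each other. With a block shared by both cell types the 8 calls between OT-I and OT-II in saline held. The prophylactic interactions for pGal against OVA of Il7r (0.90, adjusted p = 0.0541) and Il2rb (-1.41, adjusted p = 0.0601) and for pGal against saline of Il4ra (0.62, adjusted p = 0.0690) were not called, and that of Il7r for pGal against saline was (0.83, adjusted p = 0.0320). It changed no other call. Ranks by level per length used merged exons; with the longest transcript 2 genes changed rank in prophylactic OT-II saline and 7 in therapeutic OT-II saline. Whether depth limited any result was not tested. Il2ra and Il15ra had group means under 40 CPM, and therapeutic groups held libraries of 1 mouse with wide spread.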

Other observations

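The 11 therapeutic libraries whose coreceptor transcripts went against the label entered only the fits of all libraries as labelled. In the 6 libraries labelled OT-I that held Cd4, Il6ra was 141 CPM at the lowest, 173 at the median and 212 at the highest, and Il2rb ran from 112 to 969 CPM. In the 5 libraries labelled OT-II that held Cd8a, Il6ra was 23.8, 26.6 and 57.6 CPM, and Il2rb ran from 457 to 2226 CPM.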
